A study of Mus musculus with 8 samples.

Results

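The genes described here are 8 microRNA genes of mouse chromosome 4, Mir200a, Mir200b, Mir429, Mir34a, Mir30e, Mir30c-1, Mir101a and Mir31, and their time of replication in embryonic stem cells. They were taken by name from 56 microRNA genes in a RefSeq table of GRCm38.p6, the assembly of mm10, which lists 2923 genes on this chromosome. All 8 had a replication timing score, as did 2853 genes in all. The 8 genes form 5 loci and lie over 7 bins of 5 kb. Members of a locus are therefore not independent measurements, and Mir200a and Mir429 share 1 bin and have the same values throughout.

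Repli-seq was done on control embryonic stem cells of the JM8N4 line and on mouse embryonic stem cells that carry a deleted Klf4 enhancer; Klf4 encodes a pluripotency factor. BrdU was given for 2 h, and labelled DNA of 40000 early and 40000 late S-phase cells was sequenced. The 8 libraries make 4 profiles, control 1 and 2 and deletion 1 and 2, each from 1 early and 1 late library. The labels do not give the coordinates of the deletion, whether 1 or both alleles carry it, how many clones were used or whether replicates were separate cultures. The p-values therefore measure only the spread between these profiles, which may be technical. The comparison asks whether cells with the deletion replicate a locus earlier or later, here at loci 33.4 to 100.5 Mb from Klf4.

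The deposited value is a timing score without a unit, scaled by the authors, at positions 5 kb apart. The table holds no read counts, so the depth behind a score is unknown. Protein-coding genes were at 15.05 per Mb where the mean score of the 4 profiles lay above 0 and at 2.96 per Mb where it lay below 0, and higher scores were read as earlier replication on that basis. A gene is called early here when its score was above 0 in all 4 profiles, late when it was below 0 in all 4 and mixed otherwise. Over all 30659 positions the deletion profiles scored higher by a median of 0.16, the shift of the whole chromosome against which some differences are set. Expression was not measured, so the cell type could not be checked against marker genes.

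A microRNA gene is transcribed into a hairpin, which is cut into a short mature RNA that guides Argonaute proteins to messenger RNAs, mainly through a stretch near its 5′ end called the seed. Replication timing is the order in which segments of a chromosome are copied during S phase, and early segments are typically rich in genes and in transcribed chromatin. The miR-200 family is known for keeping epithelial cells epithelial by repressing Zeb1 and Zeb2, miR-34a for its induction by p53, and miR-101 for repressing Ezh2. The miR-30 and miR-31 families are broadly studied in differentiation and cancer.

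The mature sequences of the usual guide arm of each member are shown to make plain which loci carry copies of a seed and which do not. All 8 members matched the RefSeq microRNA table of GRCm38.p6. Capitals mark the seed, bases 2 to 8 from the 5′ end.
mmu-miR-200b-3p: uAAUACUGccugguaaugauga
mmu-miR-429-3p: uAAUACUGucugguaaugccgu
mmu-miR-200a-3p: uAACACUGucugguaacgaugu
mmu-miR-30e-5p: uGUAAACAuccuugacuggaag
mmu-miR-30c-5p: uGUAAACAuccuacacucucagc
mmu-miR-34a-5p: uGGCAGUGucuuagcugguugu
mmu-miR-101a-3p: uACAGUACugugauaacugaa
mmu-miR-31-5p: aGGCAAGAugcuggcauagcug

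Within the Mir200 cluster, the products of Mir200b and Mir429 have the same seed and are identical at 18 of 22 bases. The seed of miR-200a-3p differs from that of miR-200b-3p at 1 base, U4C, counted from 1 at the 5′ end of the mature RNA. Besides the members, the table lists Mir200c with the first seed and Mir141 with the other. Mir30e and Mir30c-1 also share a seed and are identical at 17 of 22 compared bases, and 3 further genes in the table carry that seed, Mir30a, Mir30c-2 and Mir384. The genes listed in the table with the seed of miR-34a-5p are Mir34b, Mir449a and Mir449c. Only sequences in the table were compared, so these lists may leave out other genes with the same seeds. No other gene in the table had the seed of miR-101a-3p or that of miR-31-5p. Members that share a seed on this chromosome thus lie within 1846 bp of each other in the Mir200 cluster, and within 3164 bp in the Mir30 pair.

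The 8 genes fell into a group replicated very early (the Mir200 cluster and the Mir30 pair), an early gene, Mir34a, a moderately early one, Mir101a, and Mir31 on the border between early and late. Of the 8, 7 were early, 1 was mixed and 0 were late. Among all 2853 genes 69.8% were early, 4.8% mixed and 25.4% late, and among the 48 other microRNA genes 39 were early, 3 mixed and 6 late. Those 48 include Mir30f, which has the coordinates and scores of Mir30e, and the late genes Mir873a and Mir873b, which share coordinates and scores. The members' median control score was 3.25, compared with 2.18 over all genes. Over the 48 other microRNA genes it was 2.64, and over protein-coding genes, of which 79.7% were early, it was 2.49. Most members belong to the Mir200 cluster or the Mir30 pair, so these loci weigh most in the members' median. The members were picked by name, so these shares are given as a description.

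**Figure D1:**
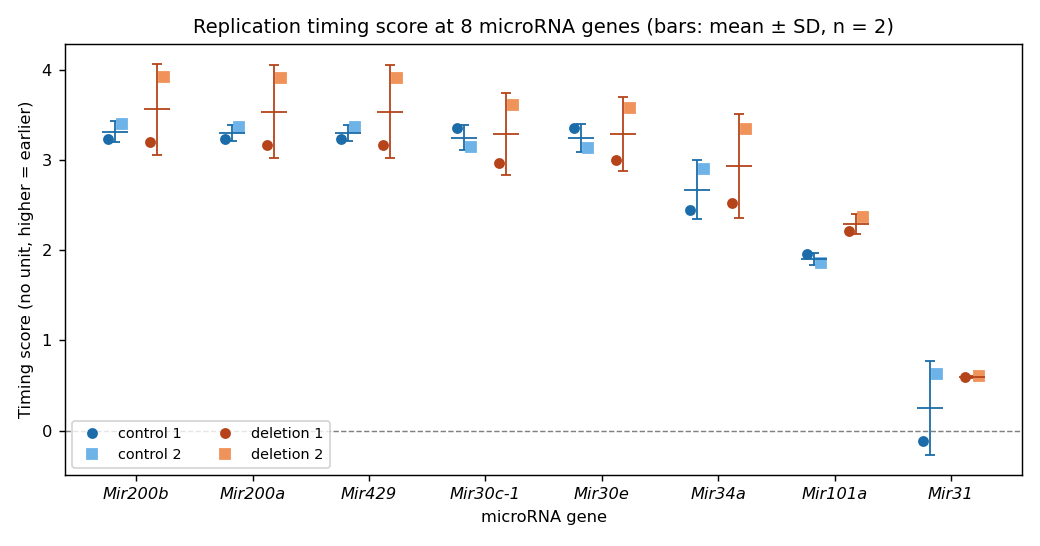
Vertical axis, timing score without a unit (earlier replication upwards), in the 4 profiles at each of 8 microRNA genes, ordered by control mean, with bars for mean ± SD (n = 2 profiles per genotype). Mir31 sits astride 0, from -0.12 to 0.62, and Mir101a is the gene whose deletion profiles, at 2.21 and 2.37, both lie above its controls.

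The order of the control means was Mir200b, then Mir200a with Mir429, Mir30c-1, Mir30e, Mir34a, Mir101a and Mir31. The step from Mir429 to Mir30c-1 was 0.05 and held in 3 of 4 profiles, so these neighbours did not differ beyond the spread between profiles. Mir30e scored above Mir34a in 4 of 4 profiles by a control mean of 0.57, although the ranges over all profiles overlapped, with 3.0 as the lowest Mir30e value and 3.35 as the highest Mir34a value. The lowest Mir34a score, 2.44, was above the highest Mir101a score, 2.37. The lowest Mir101a score, 1.86, was in turn above the highest Mir31 score, 0.62. Timing therefore separated Mir34a, Mir101a and Mir31 from one another in every profile, but not the Mir200 cluster from the Mir30 pair.

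In the comparison of deletion with control cells, no member passed the test. Of 2853 genes limma called 0, a background of 0.0%, with 38 at an unadjusted p under 0.05 and none of these a member. For all 8 members the adjusted p was 0.999. The mean difference was positive at 8 of 8 members, between 0.04 and 0.38, as it was at 2018 of all 2853 genes. The members' median difference was 0.24, compared with 0.14 over all genes. Relative to the shift of the whole chromosome the median was 0.09, and after subtracting each profile's own median it was 0.13, compared with 0.03 over all genes. The members' medians fall on the values of the Mir200 cluster, a single locus whose genes are not independent measurements. Both deletion profiles lay above both controls at 1 of 8 members, Mir101a, and below them at 0. Over all genes these shares were 14.3% and 7.19%, so 1 of 8 is near the background. With the median of each profile subtracted, 0 of 8 members had groups that did not overlap, against 17.4% of all genes higher and 12.9% lower. Without deletion replicate 1 the fit called 18 genes, none of them a member.

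**Figure D2:**
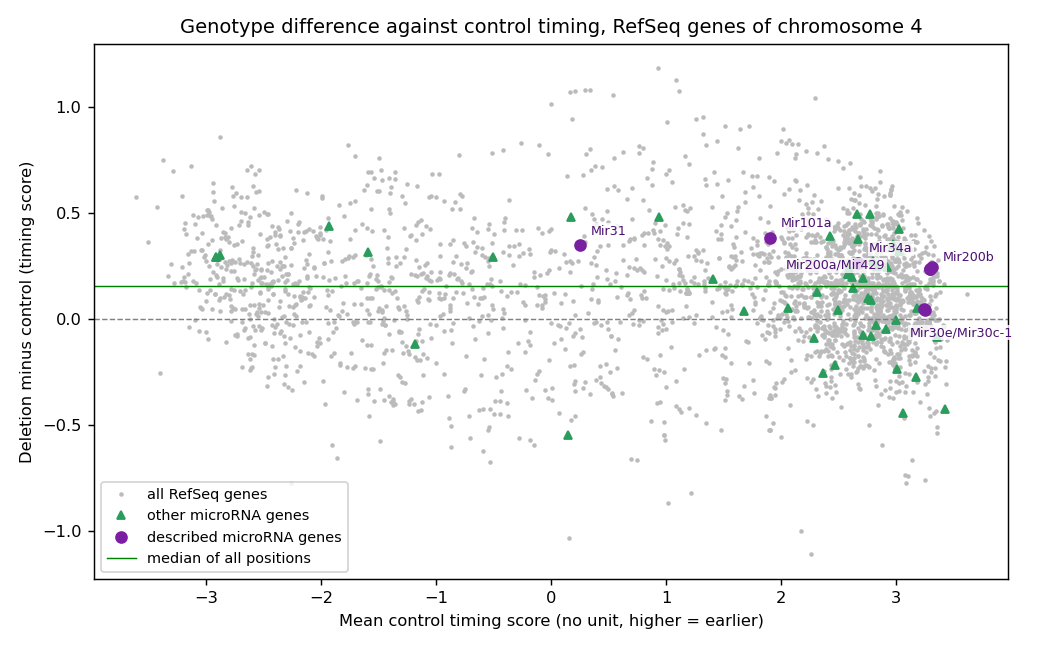
Difference in timing score, deletion minus control (vertical axis, mean of 2 profiles each), against mean control score (horizontal axis, no unit) for 2853 RefSeq genes of chromosome 4, with 8 described microRNA genes in purple, 48 others as green triangles and a green line at the median difference of all positions. The 8 genes lie between 0.04 and 0.38 and inside the cloud of all genes.

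The Mir200 cluster lies near the distal end of the chromosome, at chr4:156053905-156055750 on the minus strand, inside the span of the long noncoding RNA gene Gm13648 on the same strand. Mir200b scored 3.23 and 3.40 in control 1 and 2, against 3.20 and 3.92 in deletion 1 and 2. Mir200a and Mir429 scored 3.24 and 3.37 in the controls against 3.17 and 3.90 in deletion cells. Deletion 2 was the highest profile at the cluster and deletion 1 the lowest, so the genotypes overlapped. The control score of Mir200b, 3.31 ± 0.12 (SD, n = 2), was higher than that of 98.2% of all genes. Its difference, deletion minus control, was 0.25 (SE 0.37), and the number 1 and number 2 profiles differed by -0.03 and 0.52 (deletion 1 minus control 1, and deletion 2 minus control 2).

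The cluster sits on a local crest of an early plateau. Over 250 kb on each side the control mean ran from 2.46 to 3.32, with the highest position 4.3 kb from the start of Mir200b, and all 101 positions were early. The last position with a score lies 299.3 kb above Mir200b, and the nearest score below 0 on the other side was 2256 to 2311 kb away, depending on the profile. On the lower side the flank scored 2.75 and 2.76 in the controls against 2.93 and 3.07 in deletion cells, a difference of 0.25, and the genotypes did not overlap there. They overlapped once each profile's median was subtracted, with a difference of 0.13. On the upper side the scores were 2.82 and 3.09 in the controls against 2.73 and 3.30 in deletion cells, which overlapped.

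Genes beside the cluster were early too. Ttll10, which encodes a tubulin-modifying enzyme and lies 3.1 kb below Mir429, scored 3.25 ± 0.02 in the controls against 3.48 ± 0.49 in deletion cells (SD, n = 2 each). On the other side, 9430015G10Rik scored 3.05 ± 0.18 and 3.25 ± 0.31 (SD, n = 2 each). Of 26 protein-coding genes within 250 kb, 26 were early, with control means from 2.46 to 3.25. Pusl1, a pseudouridine synthase-like gene, had the highest difference, with 2.41 and 2.55 in the controls against 2.91 and 2.93 in deletion cells. Samd11 had the lowest, at -0.09, with overlapping genotypes. Both deletion profiles lay above both controls at 8 of these 26 genes and below at 0, but above at 0 and below at 4 with each profile's median subtracted, so the direction rests on how the profiles are centred. Over all genes these shares were 14.3% above and 7.19% below as deposited, and 17.4% and 12.9% after centring. Neighbouring genes share smoothed scores and are not independent.

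Mir30e and Mir30c-1 lie at chr4:120772606-120772697 and chr4:120769534-120769622 on the minus strand, within the span of Nfyc, which encodes the C subunit of the CCAAT-binding factor NF-Y and runs on the same strand. Mir30f is annotated at the coordinates of Mir30e on the opposite strand. Mir30e scored 3.36 and 3.13 in control 1 and 2, against 3.0 and 3.58 in deletion 1 and 2. Mir30c-1 scored 3.35 and 3.15 in the controls against 2.97 and 3.61 in deletion cells. The deletion profiles lay on either side of the controls, 1 below both and 1 above both. The difference of Mir30e was 0.04 (SE 0.36), made up of -0.36 for number 1 and 0.44 for number 2, which have opposite signs. It turned to -0.07 with each profile's median subtracted.

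Nfyc itself, whose longer span includes the bins of its 2 microRNA genes, scored 3.24 ± 0.15 in the controls against 3.33 ± 0.27 in deletion cells (SD, n = 2 each). Rims3, a gene of synaptic vesicle release on the upper side, scored 3.09 ± 0.14 and 3.34 ± 0.32 (SD, n = 2 each). All 11 protein-coding genes within 250 kb were early, with differences from -0.12 at Gm8439 to 0.28 at Zfp69. The early domain around the pair had clear ends, where the score fell below 0 at 723 to 733 kb below Mir30e and 562 to 597 kb above it in the 4 profiles. Those crossings differed by at most 35 kb among the profiles on the upper side and 10 kb on the lower side.

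Mir34a lies at chr4:150068454-150068555 on the plus strand and overlaps no other gene of the table. It scored 2.44 and 2.90 in control 1 and 2, against 2.53 and 3.35 in deletion 1 and 2. The number 2 profile was the higher of each genotype, and the genotypes overlapped. The difference was 0.26 (SE 0.38), and the number 1 and number 2 profiles differed by 0.08 and 0.45. The locus is early on both sides for more than 1 Mb, and the nearest score below 0 was 1187 to 1212 kb away.

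Around Mir34a the score was not flat. The lower flank averaged 3.11 ± 0.25 in control and the upper flank 2.60 ± 0.14 (SD, n = 2 each). Within 250 kb the lowest control mean was 2.30, at 161.5 kb above Mir34a. On the lower side, counted with the bin of Mir34a, the lowest was 2.67, in that bin. H6pd, which encodes a dehydrogenase of the endoplasmic reticulum and is the nearest coding gene on that side, scored 3.03 ± 0.08 in the controls against 3.05 ± 0.28 in deletion cells (SD, n = 2 each). Gpr157, a gene for an orphan receptor 18.9 kb above Mir34a, scored 2.73 ± 0.32 and 2.84 ± 0.68 (SD, n = 2 each). All 8 protein-coding genes within 250 kb were early, and their differences ran from -0.01 at the enolase gene Eno1 to 0.17 at the carbonic anhydrase gene Car6. The genotypes were apart at 0 of these 8 genes, compared with 14.3% of all genes higher and 7.19% lower.

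**Figure D3:**
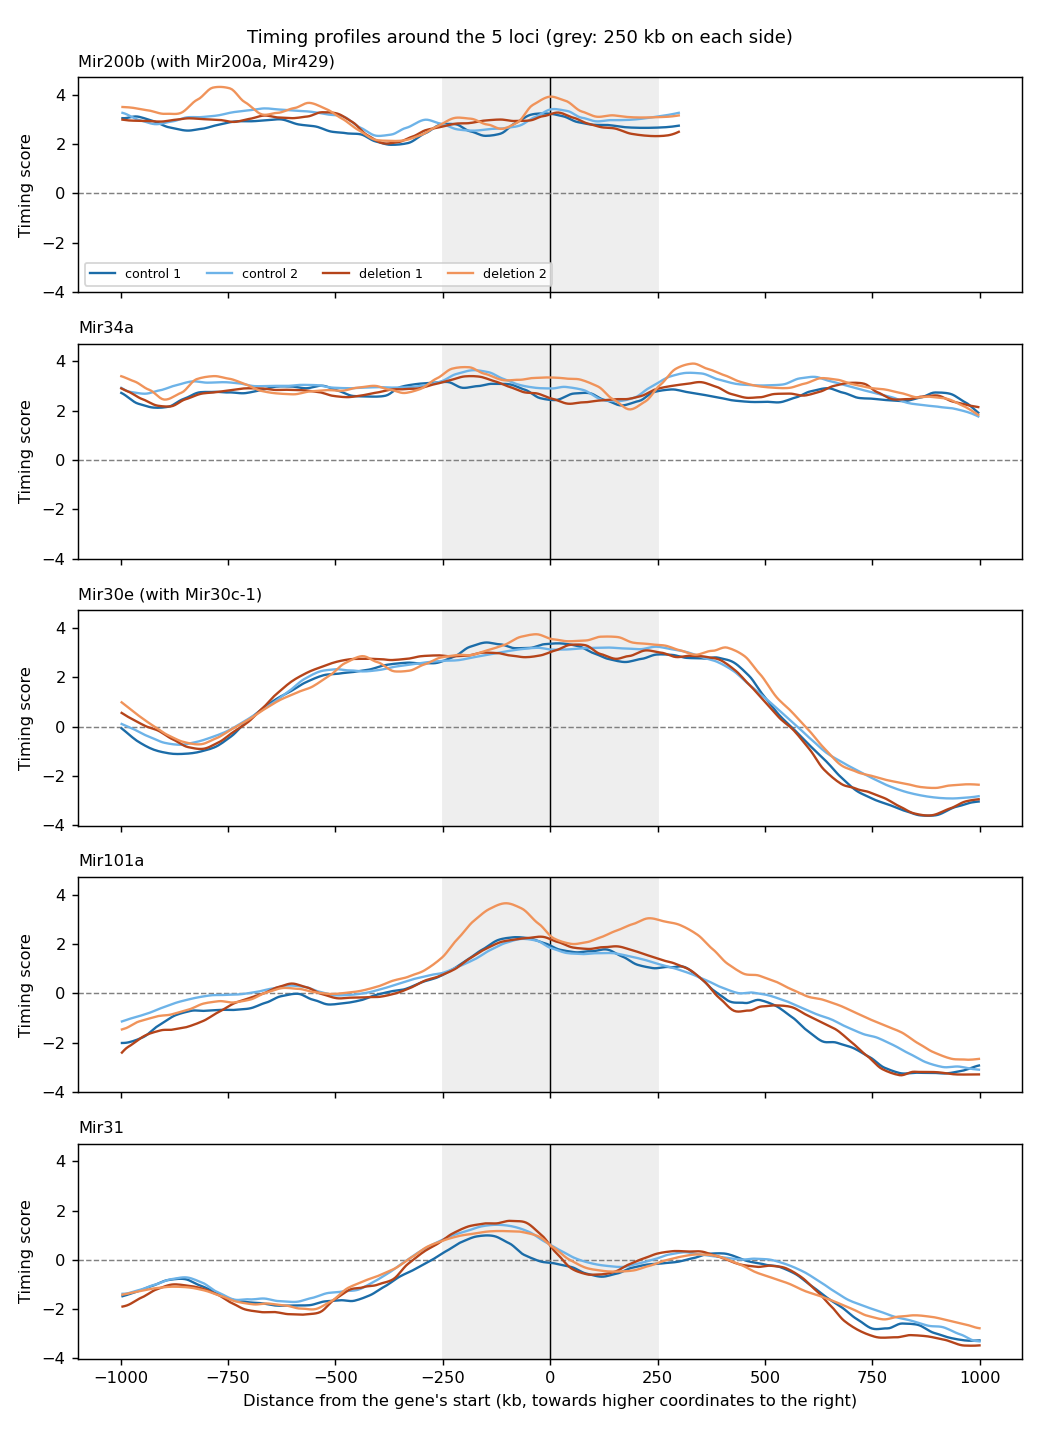
Timing score (vertical axis, no unit) of the 4 profiles against distance from the gene's start in kb (horizontal axis) for the 5 loci, with 250 kb on each side in grey. The Mir200 and Mir34a loci stay above 0 throughout, and Mir31 lies where the score passes through 0. The Mir30 pair and Mir101a lie in early domains, and the score falls below 0 only beyond the grey.

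The hairpins of the 2 remaining loci are shown because Mir101a is the member whose genotypes did not overlap and Mir31 the member that was neither early nor late in every profile. Both are on the minus strand, and capitals mark the mature arms. Mir101a is at chr4:101346945-101347027 and Mir31 at chr4:88910557-88910662.
Mir101a: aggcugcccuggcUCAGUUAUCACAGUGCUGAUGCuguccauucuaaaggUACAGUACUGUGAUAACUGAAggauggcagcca
Mir31: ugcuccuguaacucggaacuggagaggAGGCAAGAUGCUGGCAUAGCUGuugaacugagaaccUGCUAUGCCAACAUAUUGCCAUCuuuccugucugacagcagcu

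Mir101a overlaps the long noncoding RNA gene E130102H24Rik on the same strand, between Jak1, which encodes a kinase of cytokine signalling, and Ak4, an adenylate kinase gene. It scored 1.95 and 1.86 in control 1 and 2, against 2.21 and 2.37 in deletion 1 and 2. Both deletion profiles were above both controls. The difference was 0.38 (SE 0.34), which is 0.23 beyond the shift of the chromosome, and the number 1 and number 2 profiles differed by 0.25 and 0.51. It did not pass the test (limma, adjusted p = 0.999), and the exact two-sided permutation p was 0.333, the smallest that 2 profiles against 2 can give. With each profile's median subtracted the scores were 2.75 and 2.22 in the controls against 2.94 and 2.57 in deletion cells, which overlapped, as they did after quantile normalization.

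Around Mir101a the number 2 profiles differed much more than the number 1 profiles. Over the 250 kb on each side with the gene, the scores were 1.66 and 1.62 in control 1 and 2, against 1.79 and 2.68 in deletion 1 and 2. The difference was 0.60 (SE 0.35), and the number 1 and number 2 profiles differed by 0.13 and 1.06 (limma, adjusted p = 0.998 over 2853 such surroundings, of which limma called 0.0%, and 25 had an unadjusted p under 0.05). It was 0.15 without deletion replicate 2 and 1.04 without deletion replicate 1. Deletion 2 reached 3.65 at 101.9 kb below the gene, while the highest values of the other profiles within 250 kb lay between 2.20 and 2.29. Both deletion profiles were above both controls over these surroundings as deposited, as at 9.88% of all surroundings (4.38% had both below), and with the medians subtracted, as at 16.2%. By position, 61 of 101, or 60.4%, had both deletion profiles above both controls, compared with 16.0% of all positions, and 30 of 101 with the medians subtracted, compared with 17.4%. At 0 of 101 were both below, compared with 5.86% as deposited and 12.1% after centring. Adjacent positions had nearly equal scores, with a median step of 0.0203 over the chromosome, so these positions are not independent.

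The coding neighbours of Mir101a showed the same split between profiles. Jak1 scored 1.91 and 1.72 in control 1 and 2, against 1.84 and 3.31 in deletion 1 and 2, so deletion 2 alone stood apart. Ak4 scored 1.71 and 1.61 in the controls against 1.82 and 2.12 in deletion cells, without overlap until each profile's median was subtracted. Dnajc6, which encodes auxilin of clathrin uncoating, had the highest difference of the 4 coding genes in reach, 0.94 (SE 0.42), with 1.20 and 1.33 in the controls against 1.57 and 2.84 in deletion cells. Its adjusted p was 0.999 by limma, and number 1 differed by 0.37 and number 2 by 1.51. Both deletion profiles lay above both controls at 2 of these 4 genes and below at 0, compared with 14.3% and 7.19% of all genes. With each profile's median subtracted, 1 of the 4, Dnajc6, stayed above and 0 lay below, compared with 17.4% and 12.9%. E130102H24Rik, whose score includes the bin of Mir101a, was at 1.91 and 1.82 in the controls against 2.17 and 2.29 in deletion cells. It is therefore not a measurement separate from Mir101a, and its genotypes overlapped with the medians subtracted. The early domain around Mir101a ended 383 to 443 kb above the gene in control 1, control 2 and deletion 1, and at 583 kb in deletion 2.

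**Figure D4:**
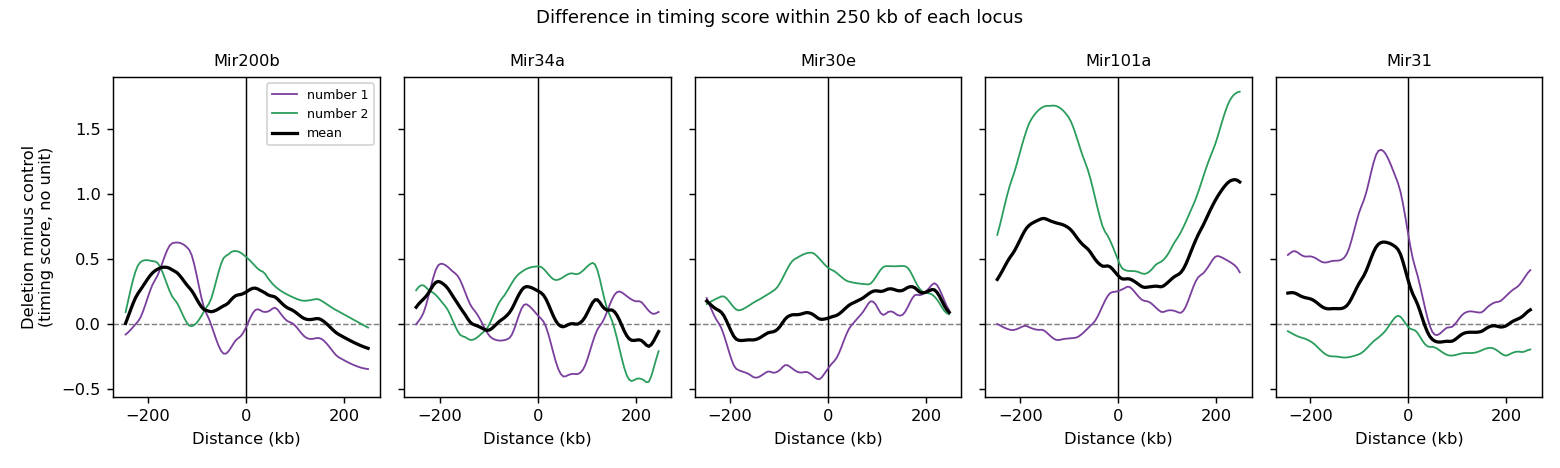
Difference in timing score, deletion minus control (vertical axis), against distance in kb from each gene's start (horizontal axis), for number 1, for number 2 and as their mean. Within 250 kb of Mir101a the number 2 difference is highest, at 1.79, 248.1 kb above the gene's start. The number 1 difference there is highest, at 0.53, 203.1 kb above it. Around Mir31 the number 1 difference is highest, at 1.34, 55.6 kb below the gene's start. The number 2 difference there is highest, at 0.07, 20.6 kb below it.

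Mir31 lies within the long noncoding RNA gene Gm49890, on the same strand, between the interferon epsilon gene Ifne and Mtap, which encodes an enzyme of methionine salvage. It scored -0.12 and 0.62 in control 1 and 2, against 0.59 and 0.60 in deletion 1 and 2. Control 1 was the only profile below 0, and the other 3 lay within 0.03 of each other. With each profile's median subtracted the scores were 0.67 and 0.99 in the controls against 1.32 and 0.81 in deletion cells. All were then above 0, and control 1 lay closest to deletion 2. The difference was 0.35 (SE 0.37), and the number 1 and number 2 profiles differed by 0.71 and -0.02, which have opposite signs. It was -0.02 without control replicate 1 and 0.72 without control replicate 2. The exact two-sided permutation p was 1.

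Mir31 sits on the slope between an early segment and one with scores a little below 0, where 54.9% of positions were late in every profile. The flank on the lower side, which holds the interferon genes, scored 0.54 and 1.16 in the controls against 1.31 and 1.03 in deletion cells. The flank on the upper side scored -0.39 and -0.03 in control and -0.22 in both deletion profiles. Within 250 kb the control mean fell from 1.20 at 140.6 kb below Mir31 to -0.46 at 124.4 kb above it, and 44 of 101 positions counted as early and 28 as late. The score changed sign 35.6 kb below Mir31 in control 1. In control 2, deletion 1 and deletion 2 it did so 69.4, 29.4 and 49.4 kb above it. In the deposited scores, control 1 thus differed from the rest in where the score crossed 0.

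The neighbours of Mir31 followed this slope. Ifne, 30.4 kb below, scored 0.00 and 0.97 in control 1 and 2, against 1.21 and 0.99 in deletion 1 and 2. Its genotypes did not overlap, but number 2 differed by 0.02 and number 1 by 1.21. Ifna1, an interferon alpha gene, scored 0.20 and 1.21 in the controls against 1.54 and 1.11 in deletion cells, with overlap. Mtap, 226.7 kb above, scored -0.16 and 0.05 in the controls against 0.23 and -0.15 in deletion cells. Of 27 protein-coding genes within 250 kb, 25 were early and 2, Ifne and Mtap, were mixed.

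The remaining microRNA genes of the chromosome covered a wider range of timing than the 8 members. The 48 others had control means from -2.91 to 3.43. The earliest were Mir6403, at 3.28 and 3.58 in the controls against 3.06 and 2.95 in deletion cells, and Mir7119, at 3.17 and 3.54 against 3.14 and 3.39. The latest were Mir873a and Mir873b, annotated at the same coordinates, at -2.91 ± 0.02 and -2.62 ± 0.53 (SD, n = 2 each). The median difference of the 48 was 0.17, and both deletion profiles lay above both controls at 6 and below at 6, against 14.3% and 7.19% of all genes.

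Among these other genes the differences ran from -0.55 to 0.50. Mir455 had the lowest, with 0.14 and 0.17 in control 1 and 2, against -0.34 and -0.46 in deletion 1 and 2. In the deposited scores it thus lay just above 0 in both controls and below 0 in both deletion profiles. With each profile's median subtracted the genotypes stayed apart, but deletion 1 was then above 0, at 0.395, and only deletion 2 below it, at -0.25. Mir7018 followed, with 2.96 and 3.16 in the controls against 2.64 and 2.60 in deletion cells. The highest differences were those of Mir5123, with 2.54 and 3.0 in the controls against 3.19 and 3.35 in deletion cells, and Mir7022, with 2.49 and 2.83 in the controls against 2.96 and 3.35 in deletion cells. None of the 48 passed the test (limma, adjusted p = 0.999 for these 4), and 0 had an unadjusted p under 0.05.

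**Figure D5:**
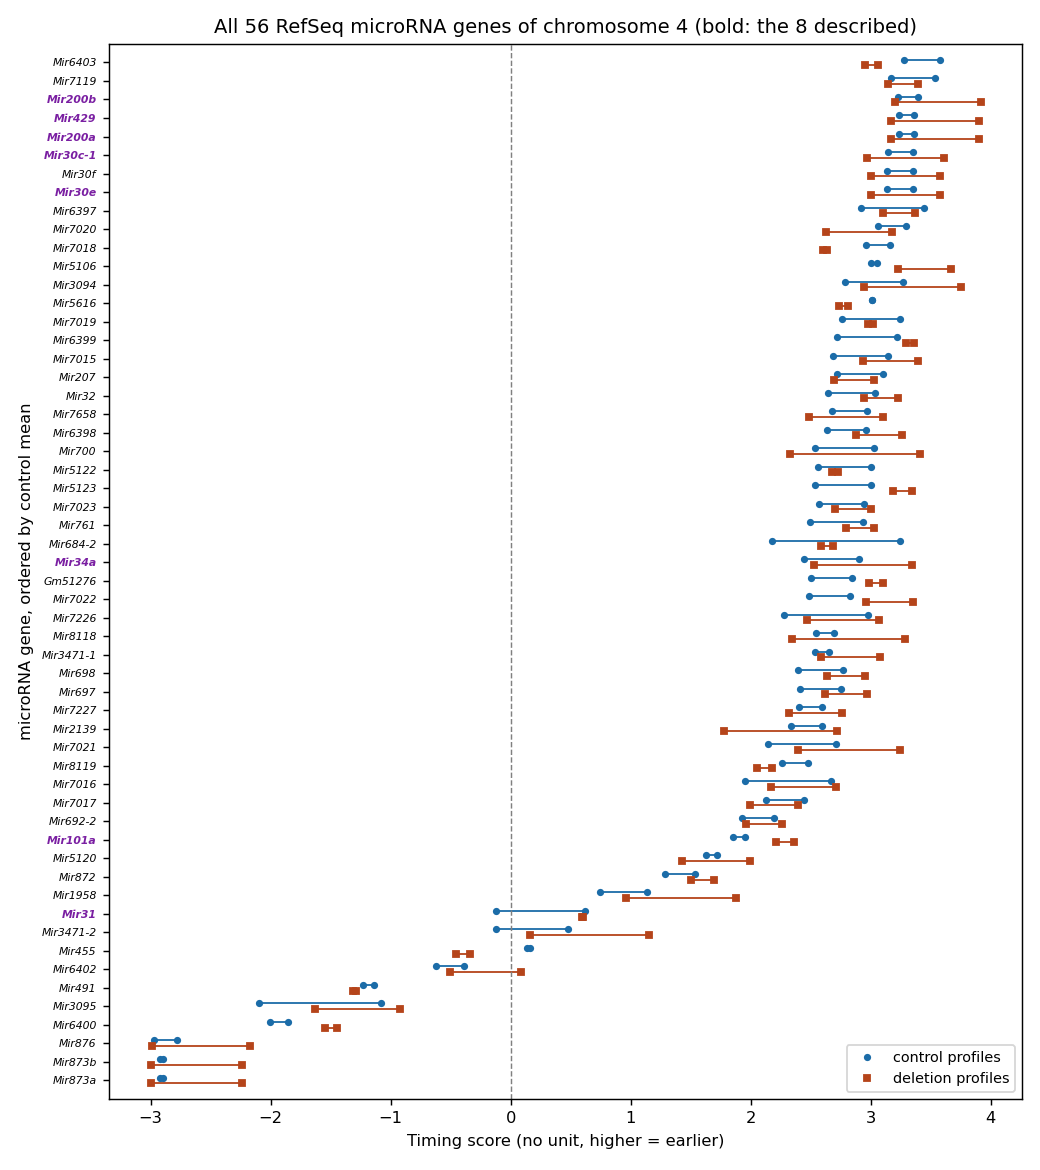
Timing scores (horizontal axis, no unit, higher is earlier) of the 2 control and 2 deletion profiles at each of 56 RefSeq microRNA genes of chromosome 4, ordered by control mean, with the 8 described genes in bold. Lines join the 2 profiles of a genotype. In these deposited scores Mir455 is a gene whose control pair, at 0.14 and 0.17, lies above 0 and whose deletion pair lies below it.

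Genes of the microRNA pathway on this chromosome were early in both genotypes. Ago1, Ago3 and Ago4 encode Argonaute proteins, which hold the mature RNA, Tut4 encodes a uridyltransferase that acts on precursors, and Lin28a encodes the RNA-binding protein that blocks let-7 maturation. All 5 were early, with control means between 2.74 and 3.44. Lin28a scored 2.70 and 2.77 in the controls against 3.12 and 2.94 in deletion cells, with no overlap until each profile's median was subtracted. Ago1 scored 3.11 and 3.77 in the controls against 2.99 and 3.49 in deletion cells, Ago3 differed by -0.05 and Ago4 by -0.20, with overlap at all 3. Those 3 neighbouring genes did not overlap, with both deletion profiles lower, once the medians were subtracted, as was so of 12.9% of all genes. Tut4 differed by 0.16. By limma 0 of the 5 rose and 0 fell, with 0 at an unadjusted p under 0.05.

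Protein-coding genes over 1 Mb away with the most similar scores were found by the smallest Euclidean distance over the 4 profiles. For Mir200b this was Il22ra1, at a distance of 0.12 among 1251 genes, and the same gene was closest to Mir200a and Mir429, at 0.15. Nipal3 was closest to Mir34a (0.08 among 1268), and Fhad1 to Mir30e and Mir30c-1 (0.11 and 0.12 among 1279). Mir101a was closest to Arhgef16 (0.23 among 1284). Mir31 had the most distant match, Kdm4c, at 0.43 among 1261 genes, whose scores of 0.15 and 0.42 in the controls against 0.49 and 0.86 in deletion cells also lay near 0.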

How the data were processed

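Repli-seq of 8 libraries gave 4 timing profiles. The deposited timing scores, per the file headers and name, were scaled by the authors to a common interquartile range (4.6 in each profile) on mm10, and the log base and smoothing are not given in the sources used here. Bowtie2, SAMtools and bedtools are named in the submitters' processing notes. The profile medians stayed unequal, from -0.79 to -0.21. Of 31301 positions, 642 lacked a score in some profile and were left out. A position was read as the start of its 5 kb bin. A gene's score is the mean over the bins it overlaps, and its surroundings run 250 kb to each side.

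The test between genotypes was that of the R package limma (version 3.58.1 under R 4.3.3; lmFit, then eBayes), two-sided, with Benjamini-Hochberg adjustment over 2853 genes and a threshold of 0.05, tested on simulated data, and by exact permutation of the 4 profiles for single values. SEs come from limma's moderated spread, which draws on all genes and is not a gene's own replicate spread. The SE was 0.354 for the surroundings of both Mir101a and Mir31, with deletion SDs of 0.627 and 0.1. The labels number only the second replicates, and the column names number both, so "number 1" and "number 2" name profiles and are not stated to be pairs. The members and lists were chosen with earlier results of these data known. Named genes were the members, overlapping genes, the nearest coding gene on each side, the coding genes of highest and lowest difference within 250 kb, 5 pathway genes, the other microRNA genes with the 2 highest and 2 lowest control scores and differences, and the closest matches; 1 gene that this rule names is not reported here. Alternatives covered scaling, centring, the replicate block, limma's options, bin reading, window width, the features tested, the boundary between early and late, and leaving out each profile.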

Additional observations from a re-analysis of the deposited data

How the results depend on the processing

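No member was called under any alternative run, for the gene or for its surroundings. Of 175 recomputed differences at the members and their surroundings, 137 kept their direction and side of the threshold and 38 turned negative. The differences at Mir101a and around it stayed positive in all alternatives run. At Mir30e and Mir30c-1 they were -0.066 and -0.070 after median centring, with or without the replicate block, -0.014 and -0.015 in units of the interquartile range, and -0.12 and -0.13 after quantile normalization. Over the surroundings of Mir34a, Mir30e and Mir30c-1 they were -0.024, -0.0021 and -0.0010 after median centring, with or without the replicate block, -0.0052, -0.00049 and -0.00025 in units of the interquartile range, and -0.079, -0.058 and -0.056 after quantile normalization. That normalization also gave -0.010, -0.0094 and -0.0071 around Mir200b, around Mir200a with Mir429, and around Mir31. Median centring by its construction lowers every difference by 0.11, the difference between the genotypes in mean profile median.

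With single profiles left out, the differences ranged from -0.11 to 0.61 at Mir200b, -0.13 to 0.60 at Mir200a and Mir429, -0.15 to 0.67 at Mir34a, -0.24 to 0.33 at Mir30e, -0.28 to 0.36 at Mir30c-1 and -0.02 to 0.72 at Mir31. Over the surroundings they ranged from -0.022 to 0.32 at Mir200b, -0.017 to 0.32 at Mir200a with Mir429, -0.092 to 0.27 at Mir34a, -0.091 to 0.31 at Mir30e, -0.088 to 0.31 at Mir30c-1 and -0.092 to 0.40 at Mir31. Counts of called genes ranged from 0 to 18, the latter without deletion replicate 1, and of called surroundings from 0 to 7, also without deletion replicate 1, with 2 without deletion replicate 2. Each such fit leaves the replicate numbers uneven between genotypes.

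With the replicate number as a block, 0 genes and 0 surroundings were called, and unadjusted p-values under 0.05 rose from 38 to 328 and from 25 to 455. The surroundings of Mir101a then had an unadjusted p of 0.0393 and an adjusted p of 0.302 by limma. Deviations from the genotype means correlated at 0.637 between profiles of the same number, a hint from the data and not from the labels. With each profile's own median, or after quantile normalization, Mir31 was early too and 8 of 8 members were early. With positions as bin ends 7 were early, and the members' scores moved by at most 0.117. With 2 profiles per genotype and an unknown depth, lack of calls does not show absence of change.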
